A study of Rattus norvegicus with 24 samples.

Results

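A set of 10 genes of insulin-like growth factor (IGF) and insulin signalling was followed through the hippocampus and neocortex of fetal rats from 4 maternal treatment groups. They are the ligand gene Igf1, the receptor genes Igf1r, Igf2r and Insr, the receptor substrate genes Irs1 and Irs2, and the binding protein genes Igfbp2, Igfbp3, Igfbp4 and Igfbp5. The 10 genes were taken by symbol from the 17420 genes of the deposited table, all 10 were present, and all 10 passed the filter on low values that left 12516 genes to test. RNA sequencing covered 24 Sprague-Dawley pups on embryonic day 18, 6 in each group and 3 from each of 2 litters. On gestational day 17 dams were injected intraperitoneally with Saline, with methylazoxymethanol acetate (MAM) at 22 mg/kg, or with Poly I:C (polyinosine:cytosine) at a dose of 7.5 mg/kg, and tissue was taken 18 hours later. Low Protein dams ate a diet with 6.1% protein from gestational day 11 to day 18, and control rats ate an isocaloric diet with 20.3% protein over the same days. The sources do not state whether the Saline, MAM and Poly I:C dams all ate that control diet and do not mention an injection of the Low Protein dams. The dam received the treatment, so pups of a litter share it, and the p-values over pups measure the spread between pups of only 2 litters per group.

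IGF1 and IGF2 are small secreted growth factors that act mainly through IGF1R, a receptor tyrosine kinase closely related to the insulin receptor. The activated receptors phosphorylate the IRS adaptor proteins, which pass the signal to the PI3K, AKT and TOR arm, while IGF2R removes IGF2 from the cell surface and sends it for degradation. The binding proteins carry the ligands outside the cell and limit or prolong their action. Maternal protein restriction is widely used as a model of fetal growth restriction, in which circulating IGF1 is a well known nutritional signal. In the embryonic brain the meninges, the choroid plexus and blood vessels are known sources of IGF2.

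The deposited values were labelled TPM by the study and carried an offset of 0.0001. Each pup's values summed to 70350.1, and they scaled with the genomic span of a gene, introns included. A level is therefore a level per genomic span, and long genes have low values. The reads behind the values were estimated at 25.0 to 64.9 M per pup. Igf1, which spans 79839 bases, rested on the fewest reads, with an estimated median of 68.8 reads per pup and a range of 31.0 to 168, which gives a counting error of 12.1% (CV). The other 9 members rested on medians of 593 reads (Irs1) to 9200 reads (Igfbp2). Tissue identity was checked on Neurod6, a marker of cortical excitatory neurons, which was between 46.8 and 127 TPM over the 24 pups. Markers of tissue beside the neuroepithelium were present in every pup as well. The choroid plexus gene Ttr ranged from 32.0 to 240 TPM, the endothelial gene Cldn5 from 36.2 to 77.0 TPM and the meningeal collagen gene Col1a1 from 1.37 to 17.4 TPM. In such bulk tissue, fewer cells of a type and less RNA per cell cannot be told apart.

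Start sites of 9 members were found in the RefSeq table of the GRCr8 assembly, with windows of 250 bases before and 50 bases after the start, and Irs2 had no entry. The windows of 3 members are printed because the results turn on them. Igf1r and Insr were the pair that varied most closely together from pup to pup, and Igfbp4 was the member closest to a marker list. Capitals mark matches on either strand to any of 3 motifs, and each window held 1 match, so that no matches overlapped. One motif was the core of a GC box, with the letters GGGCGG. Another was a form of the TATA box, spelled as TATAAA. The last was a core known for binding of forkhead factors, spelled as TGTTTAC. The sequences run 5′ to 3′ on the strand of the gene.

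Igf1r, chr1:130959747-130960046, plus strand: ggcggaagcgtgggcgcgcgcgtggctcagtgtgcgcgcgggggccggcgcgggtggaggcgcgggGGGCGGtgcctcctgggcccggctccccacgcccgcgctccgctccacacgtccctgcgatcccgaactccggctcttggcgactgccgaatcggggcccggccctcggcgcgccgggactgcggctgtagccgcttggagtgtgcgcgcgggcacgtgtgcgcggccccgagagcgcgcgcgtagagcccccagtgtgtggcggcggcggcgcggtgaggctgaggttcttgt

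Insr, chr12:6128754-6129053, minus strand: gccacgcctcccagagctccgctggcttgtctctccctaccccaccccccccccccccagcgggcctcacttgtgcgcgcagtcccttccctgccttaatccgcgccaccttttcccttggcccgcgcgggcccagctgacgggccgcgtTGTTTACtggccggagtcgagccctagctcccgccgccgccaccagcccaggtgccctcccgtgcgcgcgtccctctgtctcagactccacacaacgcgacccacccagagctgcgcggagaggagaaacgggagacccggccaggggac

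Igfbp4, chr10:84491221-84491520, plus strand: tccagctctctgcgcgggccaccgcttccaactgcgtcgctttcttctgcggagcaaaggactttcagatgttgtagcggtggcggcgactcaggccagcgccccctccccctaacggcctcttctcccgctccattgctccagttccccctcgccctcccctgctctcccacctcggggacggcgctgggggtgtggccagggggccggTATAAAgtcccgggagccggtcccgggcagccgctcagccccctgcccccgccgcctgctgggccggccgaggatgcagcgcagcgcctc

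The Igf1r window held 50 CpG dinucleotides, more than 99.3% of the 33469 windows in the table, and a GC content of 78.0%. The Insr window held 28 CpG and a GC content of 71.3%, and the Igfbp4 window held 27 CpG and a GC content of 71.0%. The median window in the table had 7 CpG and a GC content of 51.7%. A GC box was present in 33.1% of all windows, among members in those of Igf1r, Igf2r, Irs1 and Igfbp2. TATAAA was present in 14.2% of all windows and, among members, in that of Igfbp4. TGTTTAC was present in 3.78% of all windows and, among members, in that of Insr. A match describes the letters of the window and was not read as a binding site.

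On the scale per genomic span, Igfbp2 was the highest member, at 7.23 TPM ± 1.23 (SD over 24 pups), and Igf1 the lowest, at 0.0201 TPM ± 0.00558. Between them came Igfbp4 (4.09 ± 0.738), Igfbp3 (2.81 ± 0.400), Irs2 (2.00 ± 0.223), Igfbp5 (1.44 ± 0.278), Igf2r (0.728 ± 0.117), Insr (0.255 ± 0.0515), Irs1 (0.234 ± 0.0444) and Igf1r (0.0709 ± 0.0139). Insr and Irs1 lay within their spread of each other, as the mean of each was inside the SD of the other. The second ligand gene, Igf2, which is no member but acts on the same receptors, was at 14.3 TPM ± 6.96, above every member. Within groups 9 of the 10 members spread more widely than 60.8% or more of the tested genes. The pooled SD on the log2 scale ran from 0.17 for Irs2, wider than 40.9% of the tested genes, to 0.35 for Igf1, wider than 79.9%, and for Igf2 it was 0.60, wider than 91.4%.

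**Figure D1:**
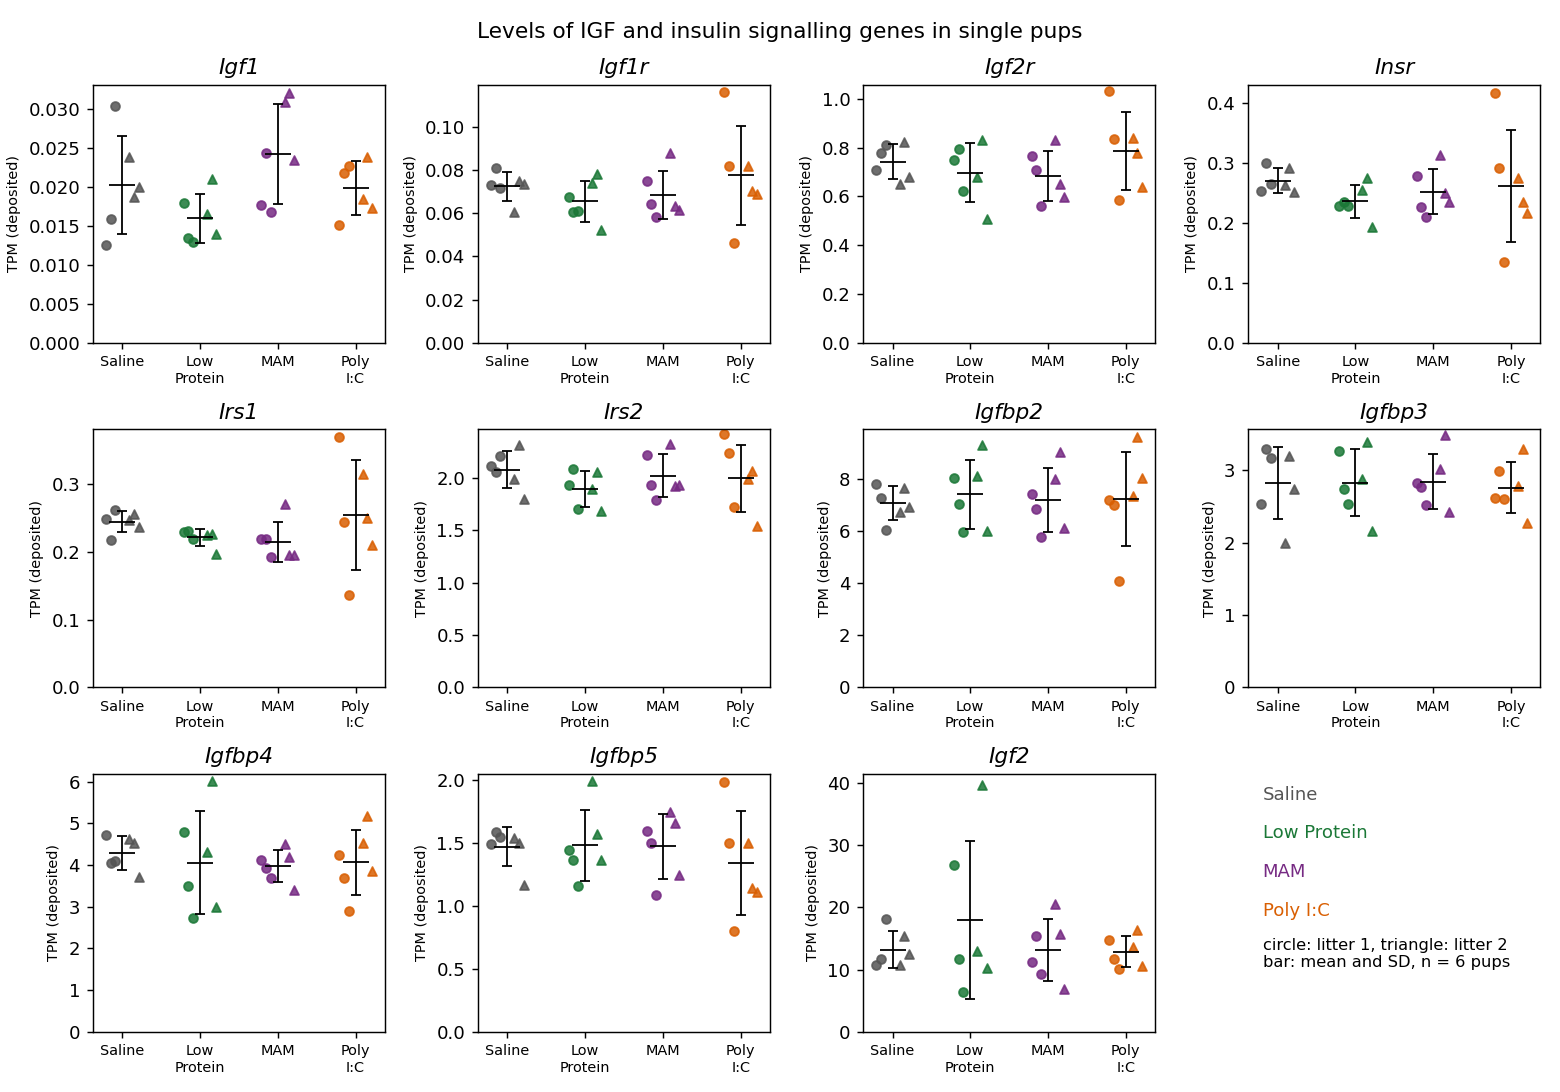
Deposited TPM (per genomic span) of the 10 members and Igf2 in each pup, by maternal group. Circles are litter 1 and triangles litter 2, bars are the mean and SD of 6 pups, and every axis starts at 0. Groups overlap for every gene, and the Poly I:C pups are spread most widely for Igf1r, Insr and Irs1.

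The first question was whether a low protein diet changed these genes in the fetal brain. None of the 10 members differed between Low Protein and Saline pups in limma at an unadjusted p under 0.05, a threshold passed by 7.24% of all tested genes (906 of 12516), and no tested gene passed after Benjamini-Hochberg adjustment (0%). The lowest p of a member was 0.159, for Irs2 (adjusted p = 0.789). By sign alone, 8 members were lower and 2 higher in Low Protein pups, with a median log2 difference of -0.13, beside a median of -0.01 over all tested genes. The values of the 2 groups overlapped for every member, whereas 0.695% of the tested genes had groups apart.

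The ligand Igf1, the growth factor that signals through IGF1R, had the most negative Low Protein value of the members. Its 6 Saline pups ranged from 0.0126 to 0.0304 TPM with a median of 0.0194, and the 6 Low Protein pups from 0.0130 to 0.0211 TPM with a median of 0.0152. The ranges overlapped, and 4 of the 6 Saline pups lay at or below the highest Low Protein pup. The log2 fold change was -0.31 ± 0.22 (SE, limma adjusted p = 0.797), and an exact two-sided permutation test gave p = 0.182. Its 95% interval ran from a fold of 0.592 to 1.10, so a fall to 0.592 of the Saline level was not excluded by the data. The interval holds the spread between pups together with the counting error.

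Among the receptors, Insr, the insulin receptor, had the clearest separation. Its Saline values were 0.253, 0.300 and 0.265 TPM in litter 1 and 0.264, 0.292 and 0.251 TPM in litter 2. The Low Protein values were 0.228, 0.236 and 0.229 TPM in litter 1 and 0.255, 0.275 and 0.194 TPM in litter 2. The 3 pups of Low Protein litter 1 and pup 2-3 lay below every Saline pup, and the other 2 lay within the Saline range. The log2 fold change was -0.20 ± 0.17 (SE, limma adjusted p = 0.849). The test over the 12 pups alone gave a smaller p, with exact permutation p = 0.0303 over 924 splits, for which the smallest possible p is 0.00216.

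Irs1, the adaptor that both receptors phosphorylate, behaved like Insr. Saline pups ranged from 0.218 to 0.262 TPM (median 0.247) and Low Protein pups from 0.197 to 0.231 TPM (median 0.226). All 6 Low Protein pups lay below 5 of the 6 Saline pups, and Saline pup 1-2 lay at 0.218 TPM among the Low Protein values. The log2 fold change was -0.14 ± 0.15 (SE, limma adjusted p = 0.897), with exact permutation p = 0.0216. Insr and Irs1 were the 2 of 10 members with an exact p under 0.05 in that comparison, a share to be read beside 9.41% of all tested genes, and 30 such tests were made on the members against Saline. The limma fit pools the spread of all 4 groups, and for Insr and Irs1 that spread was widest in the Poly I:C pups described below. In a limma fit of only the 12 pups Insr was the 1 member called (adjusted p = 0.516), beside 9.18% of tested genes in that fit. Irs1 was not called in that fit either, and why the limma and exact tests differ was not tested. The exact p for Irs1 stayed between 0.00216 and 0.0455 when any 1 of the 12 pups was left out. That for Insr ran from 0.00866 to 0.0649 and was above 0.05 without any 1 of Saline pups 1-2 and 2-2 and Low Protein pups 1-1, 1-2, 1-3 and 2-3.

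The other receptors and Irs2 had negative Low Protein values, none of which was called. For Igf1r and Igf2r the difference was smaller than its SE, and for Irs2 it was larger than its SE. Igf1r, the main signalling receptor, was at 0.0725 TPM ± 0.00666 in Saline and 0.0655 ± 0.00954 in Low Protein pups (SD, n = 6), a log2 fold change of -0.15 ± 0.16 (SE, limma adjusted p = 0.893). Igf2r, the clearance receptor for IGF2, had a log2 fold change of -0.10 ± 0.13 (SE, limma adjusted p = 0.926). Irs2 had -0.14 ± 0.09 (SE, limma adjusted p = 0.789), from 2.08 TPM ± 0.177 in Saline to 1.90 ± 0.170 in Low Protein pups (SD, n = 6).

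Litter means ran the same way for these 5 genes. Relative to the Saline mean, the litter means of log2 TPM in Low Protein litters 1 and 2 were -0.20 and -0.11 for Igf1r, -0.04 and -0.16 for Igf2r, and -0.23 and -0.18 for Insr. They were -0.11 and -0.18 for Irs1 and -0.13 and -0.15 for Irs2. The 2 Saline litters lay within 0.06 of their mean for Igf1r, the widest gap of the 5. With 2 litters per group these are descriptions, and because the 5 genes varied together from pup to pup, as shown further on, they are not 5 separate observations.

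None of the binding proteins, which hold the ligands outside the cell, was called, and 3 of the 4 lay within 0.06 of 0 on the log2 scale. Igfbp2 was at 7.08 TPM ± 0.644 in Saline and 7.41 ± 1.32 in Low Protein pups (SD, n = 6), with a log2 fold change of 0.05 ± 0.15 (SE, limma adjusted p = 0.977). Igfbp3 and Igfbp5 had log2 fold changes of 0.0071 and -0.0028, with limma adjusted p = 0.996 and 0.998. Igfbp4 had -0.13 ± 0.15 (SE, limma adjusted p = 0.912), and its Low Protein pups were far more spread than the Saline pups. They ran from 2.72 to 6.02 TPM with a median of 3.90, against 3.71 to 4.71 TPM with a median of 4.31 in Saline pups. The CV of Igfbp4 was 30.5% in Low Protein and 9.28% in Saline pups.

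Igf2 showed the same widening of the Low Protein group. Its 6 Low Protein values were 26.8, 11.6 and 6.45 TPM in litter 1 and 13.0, 39.7 and 10.3 TPM in litter 2. The highest and the lowest value of all 24 pups were both Low Protein pups, while the Saline pups lay between 10.7 and 18.1 TPM. The log2 fold change was 0.20 ± 0.32 (SE, limma adjusted p = 0.945). The summed level of 8 meningeal and fibroblast markers ran from 4.01 to 35.4 TPM over the Low Protein pups, with a median of 9.68, and from 7.80 to 13.9 TPM over the Saline pups, with a median of 11.3. All 8 markers were detected in every pup, and none of the 8 was called in that comparison in either direction.

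**Figure D2:**
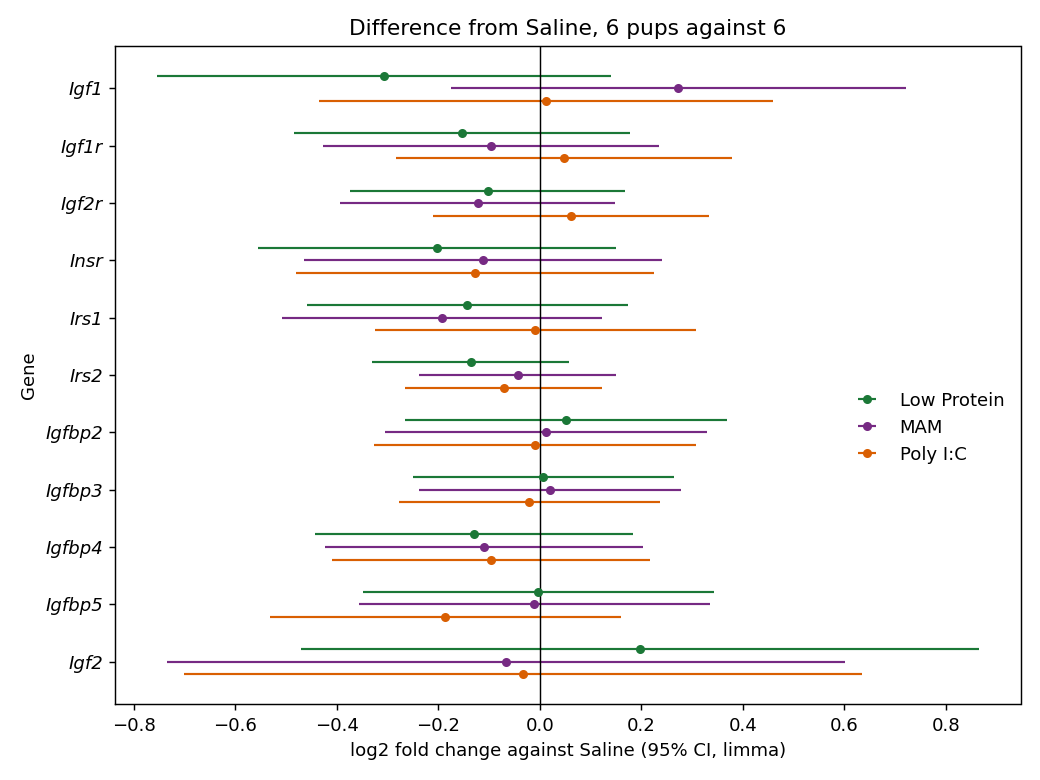
Log2 fold change of each member and of Igf2 against Saline in limma, with 95% confidence intervals, 6 pups against 6. Every interval crosses 0, from -0.31 for Igf1 in Low Protein to 0.27 for Igf1 in MAM, and the intervals of Igf2 are the widest.

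The injected groups were compared with the same Saline pups. MAM is an alkylating agent that kills dividing neural precursors. None of the 10 members was called in MAM pups, where 9.83% of tested genes had an unadjusted p under 0.05 and 0.016% an adjusted p under 0.05. By sign 7 members were lower and 3 higher, with a median log2 difference of -0.07, equal to the median of -0.07 over all tested genes. With the trend of each pup in genomic span removed, the MAM values of Igf1r, Insr, Irs2 and Igfbp5 changed sign. Irs1 had the lowest p (0.218, limma adjusted p = 0.624), with a log2 fold change of -0.19 ± 0.15 (SE) and exact permutation p = 0.0606. Its MAM pups ranged from 0.192 to 0.270 TPM with a median of 0.207, and 3 of them lay below every Saline pup. None of the 10 members had an exact p under 0.05 in MAM pups, against 13.4% of tested genes, and every member had overlapping groups, with 0.871% of tested genes apart.

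Igf1 was split by litter in MAM pups. The 3 pups of litter 1 were at 0.0178, 0.0244 and 0.0168 TPM, and the 3 pups of litter 2 at 0.0309, 0.0322 and 0.0235 TPM. Litter 2 held the 2 highest values of all 24 pups, and litter 1 lay within the Saline range. The log2 fold change over both litters was 0.27 ± 0.22 (SE, limma adjusted p = 0.6255). Litter means were -0.0072 and 0.55 relative to Saline. Leaving out litter 1 kept only the 3 MAM pups of litter 2, at a log2 fold change of 0.55. Igf1 was called in that fit but did not pass after adjustment. That call rests on 1 litter, and the share of all tested genes called in that fit is not given. Over the fits that left out a pup or litter, between 439 and 1773 of 12516 tested genes were called in MAM pups. Of 8 microglial markers, only 2 were called in MAM pups, beside 9.83% of tested genes. They were the complement genes C1qa and C1qb, higher by log2 fold changes of 0.39 and 0.33 (limma adjusted p = 0.502 for both). The summed level of the 8, these 2 included, ran from 15.0 to 19.6 TPM in MAM and from 12.3 to 15.5 TPM in Saline pups. None of the 8 was at 0 in any pup. The mean log2 level of these markers was 0.23, 0.36 and 0.30 in MAM litter 1 and 0.41, 0.25 and 0.06 in litter 2. Over the 24 pups, with group means taken out, Igf1 had r = 0.26 with that level (adjusted permutation p = 0.230). The part of such cells in the MAM values of Igf1 was not tested.

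Poly I:C is a double-stranded RNA mimic that triggers an antiviral response in the dam. None of the 10 members was called in Poly I:C pups, where 9.36% of tested genes had an unadjusted p under 0.05 and 0% an adjusted p under 0.05. The exact test called none of the 10, against 7.81% of tested genes, and the groups overlapped for every member, with 0.447% of tested genes apart. By sign 7 members were lower and 3 higher, and their median log2 difference was -0.02, beside 0.0046 over all tested genes. Igfbp5, the binding protein with the lowest p (0.278, limma adjusted p = 0.769), had a log2 fold change of -0.19 ± 0.17 (SE).

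The Poly I:C group had the widest spread on the log2 scale of the 4 groups for 7 members (Igf1r, Igf2r, Insr, Irs1, Irs2, Igfbp2 and Igfbp5) and the narrowest for Igf1 and Igfbp3. The Insr values were 0.416, 0.291 and 0.134 TPM in litter 1 and 0.275, 0.235 and 0.217 TPM in litter 2, so that the highest and the lowest of all 24 pups were litter mates. The SD of log2 Insr was 0.54 in Poly I:C pups, beside 0.11 in Saline, 0.17 in Low Protein and 0.21 in MAM pups. Poly I:C pup 1-1 had the highest value of all 24 pups for 5 members (Igf1r, Igf2r, Insr, Irs1 and Irs2), and pup 1-3 the lowest for 5 (Igf1r, Insr, Irs1, Igfbp2 and Igfbp5). The 2 libraries had nearly equal estimated depth, at 29.4 and 29.2 M reads. Pup 1-3 also had the lowest choroid plexus score (mean log2 level of the markers) of all pups, -1.66. The summed level of those markers had a lowest value of 33.6 TPM and a median of 177 TPM in the Poly I:C group.

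Differences between models were tested directly. Between Low Protein and MAM pups, 1 of the 10 members, Igf1, was called at an unadjusted p under 0.05, as were 8.8% of tested genes, and 0.0399% of tested genes passed at an adjusted p under 0.05. Igf1 was lower in Low Protein pups by a log2 difference of -0.58 ± 0.22 (SE, limma p = 0.0134, adjusted p = 0.442), with exact permutation p = 0.0152. The exact test called no other member there, against 10.1% of tested genes. The Igf1 difference was -0.30 without MAM litter 2 and -0.47 without Low Protein litter 1, and Igf1 was called in neither case. Between Low Protein and Poly I:C pups no member was called, against 4.85% of tested genes at an unadjusted and 0.016% at an adjusted p under 0.05, and the exact test called none, against 3.99%. Without Poly I:C pup 1-3, 2 of the 10 members were called there, beside 6.73% of tested genes in the same fit. They were Igf1r and Irs1, lower in Low Protein pups by log2 differences of -0.34 and -0.30 (limma adjusted p = 0.693 and 0.686). Pup 1-3 had the lowest Poly I:C values of both genes (0.0460 and 0.137 TPM). Pup 1-1, with the highest (0.116 and 0.369 TPM), was kept. Leaving out the lowest pup raises the Poly I:C mean by construction. The count of 2 was also the highest among the fits that left out a pup or litter. These calls were therefore not read as a difference between the models. An F test over the 4 groups called none of the 10, with the lowest p at 0.0935 for Igf1 (limma adjusted p = 0.459), while 13.2% of tested genes passed it.

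**Figure D3:**
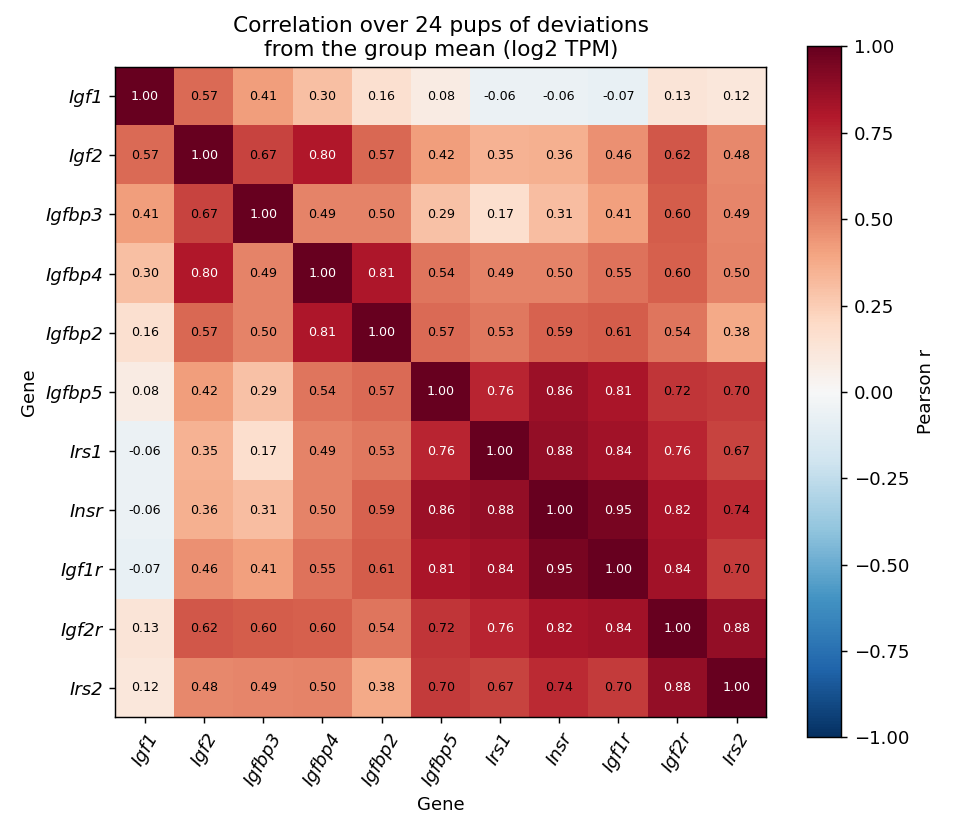
Pearson correlation over 24 pups of the deviations of log2 TPM from the group mean, for the 10 members and Igf2. Receptors, substrates and Igfbp5 form a block with correlations of 0.67 to 0.95, and Igf1 lies near 0 with that block.

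The members differed more within groups than between them, so their pup-to-pup variation was described after the group means were taken out. The 3 receptors and 2 substrates varied together. Their 10 pairwise correlations lay between 0.67 and 0.95 with a median of 0.83. The closest pair was Igf1r and Insr, the related receptor tyrosine kinases, with Pearson r = 0.95 (permutation p = 1e-05, the smallest that 100000 permutations give) and Spearman rho = 0.83 (p = 2e-05). The r was 0.88 without the 2 pups farthest from the median of Igf1r, and 0.95 within litters, after litter means were removed. Both values of a pup come from 1 library, so a shared library property raises every such correlation. Of 55 pairs computed over the 10 members and Igf2, 40 passed at a Benjamini-Hochberg adjusted permutation p under 0.05. The share of pairs of other tested genes that would pass was not computed, so the count was not read as particular to these genes.

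Igf2r paired most closely with Irs2 (r = 0.88, permutation p = 1e-05, rho = 0.89, r = 0.89 without the 2 farthest pups). Igfbp5 went with the receptors, at r = 0.86 with Insr (permutation p = 6e-05, rho = 0.85, r = 0.72 without the 2 farthest pups). Igfbp2 and Igfbp4 formed a second pair, with r = 0.81 (permutation p = 1e-05, rho = 0.79, r = 0.77 without the 2 farthest pups). Igf1 stood outside both sets by Pearson r. Its r with the other 9 members lay between -0.07 and 0.41, none with an adjusted permutation p under 0.05, and the one with Igf2 was r = 0.57 (adjusted permutation p = 0.00558, rho = 0.58, r = 0.57 without the 2 farthest pups). By rank, Igf1 passed with Igfbp3 (rho = 0.48, adjusted permutation p = 0.0430). Igf1 rested on the fewest reads of the members, and the part of its counting error (12.1%, CV) in these correlations was not tested.

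The genes most like each member in pup-to-pup variation among all tested genes were listed as a description, over 24 pups. For Igf1r they were Kalrn (r = 0.97), Helz (0.96) and Arhgef12 (0.95), and for Insr they were Arhgef12 (0.98), Tulp4 (0.97) and Kalrn (0.96). These 4 genes span between 126112 and 605866 bases. For Igf2r they were Adcy6 (0.96), Fat1 (0.95) and Dopey2 (0.95), for Irs1 Srgap3 (0.93), Nsd1 (0.93) and Hipk2 (0.93), and for Irs2 Arid1a (0.93), Dennd1a (0.93) and Zmiz1 (0.93). Those of Igfbp5 were Srcin1 (0.92), Myo18a (0.90) and Dnmt3a (0.89).

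The other binding proteins and the ligands had different company. For Igfbp4 they were Col18a1, a basement membrane collagen (r = 0.97), Tie1, an endothelial receptor (0.97), and Fkbp10, a collagen chaperone (0.96). For Igfbp2 they were Idh2 (0.95), Bcam (0.94) and Msx1 (0.93), and for Igfbp3 Pgrmc2 (0.86), Tgfb3 (0.85) and Pygl (0.84). Those of Igf2 were Net1 (0.96), Lhfpl2 (0.96) and Wdr86 (0.95), and those of Igf1 were Six2 (0.76), Aga (0.73) and Efcab10 (0.72).

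Scores of 2 kinds, computed for each pup, were set beside these patterns. One was a long-gene score, the mean log2 TPM of 1556 tested genes spanning over 100000 bases minus that of 3454 genes under 10000 bases, members left out. The others were mean log2 levels of marker lists for 6 cell classes, namely radial glia, microglia, endothelium, mural cells, meninges with fibroblasts, and choroid plexus. Of 77 correlations of the 10 members and Igf2 with these 7 scores, 49 passed at an adjusted permutation p under 0.05. How many of all tested genes would pass with the same scores was not computed, so this count too was not read as particular to them.

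Among the members, Insr and Igf1r followed the long-gene score most closely. For Insr r was 0.81 (permutation p = 3e-05, adjusted p = 0.00021), rho was 0.81 (p = 2e-04), r was 0.70 without the 2 farthest pups and 0.83 within litters. For Igf1r r was 0.79 (permutation p = 0.00012, adjusted p = 0.000711), rho was 0.74 (p = 0.00043), and r was 0.67 without the 2 farthest pups. Poly I:C pup 1-1 had the highest score of all 24 pups, -3.08, and pup 1-3 had -3.56, with -3.39 as the median of that group. The score ran from -3.38 to -3.19 in Saline pups and from -3.59 to -3.28 in Low Protein pups, with medians of -3.38 in both. Low Protein pups 1-1, 2-2 and 2-3 lay below every Saline pup, at -3.52, -3.42 and -3.59, and the others lay within the Saline range. The MAM median was -3.48. The score also went with Igfbp5 (r = 0.73, adjusted permutation p = 0.00539, rho = 0.74, r = 0.62 without the 2 farthest pups) and Igf2r (r = 0.70, adjusted permutation p = 0.00466, rho = 0.65, r = 0.58). For Irs1 r was 0.70 (adjusted permutation p = 0.00828) with rho = 0.45 (p = 0.0585) and r = 0.53 without the 2 farthest pups, and for Irs2 r was 0.60 (adjusted permutation p = 0.0261, rho = 0.52, r = 0.43). Igf1 had no correlation with it past the threshold (r = -0.15, permutation p = 0.445, rho = -0.14). The mural cell list went with all receptors and substrates as well. Its r was 0.80 for Igf2r (rho = 0.85), 0.74 for Irs1 (rho = 0.89) and 0.72 for Irs2 (rho = 0.80). For these genes that r was above the one with the long-gene score. It was 0.68 for Insr and 0.67 for Igf1r, and every adjusted permutation p was at most 0.00844. When the trend of each pup with genomic span was removed, the 10 correlations among receptors and substrates had a median of 0.66 and a range of 0.44 to 0.85, and the Low Protein log2 difference was -0.14 for Insr and -0.11 for Irs1 (limma adjusted p = 0.852 and 0.892). After that removal r with the long-gene score was 0.71 for Igfbp5, 0.70 for Insr and 0.63 for Igf2r. It was 0.62 for Irs1, 0.57 for Igf1r and 0.54 for Irs2. Igfbp5 spans 12583 and Irs2 24234 bases. What the score reflects was not tested.

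Of the lists, Igfbp4 followed the endothelial markers most closely. Its r with that list was 0.94 (permutation p = 1e-05, adjusted p = 0.00011), rho was 0.86 (p = 4e-05), r was 0.92 without the 2 farthest pups and 0.94 within litters. Igfbp4 also went with the meningeal and fibroblast list (r = 0.84, rho = 0.80) and the mural list (r = 0.84, rho = 0.74). With the microglial list r was 0.78 and rho 0.63 (adjusted permutation p = 0.00159). The 8 endothelial markers summed to 39.0 to 82.7 TPM over Low Protein pups and to 47.1 to 65.8 TPM over Saline pups, with medians of 55.5 TPM in both groups. Low Protein pup 2-2 had the highest Igfbp4 value and the highest endothelial score of its group. Igfbp2 followed the choroid plexus list most closely, with r = 0.87 (permutation p = 1e-05, adjusted p = 0.00011), rho = 0.82 (p = 1e-05), and r = 0.76 without the 2 farthest pups. Poly I:C pup 1-3, lowest of all pups for Igfbp2 at 4.10 TPM, was also lowest for that list.

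Igf2 followed the meningeal and fibroblast list, with r = 0.96 (permutation p = 1e-05, adjusted p = 0.00011), rho = 0.89 (p = 3e-05), r = 0.93 without the 2 farthest pups and 0.97 within litters. Igf1 passed with that list and no other of the 7, at r = 0.51 (permutation p = 0.0038, adjusted p = 0.0101), rho = 0.55 (p = 0.0086) and r = 0.44 without the 2 farthest pups. Igfbp3 correlated with the endothelial list at r = 0.53 (adjusted permutation p = 0.0183, rho = 0.61, r = 0.59 without the 2 farthest pups). The lists share vascular and mesenchymal tissue and are not independent of each other, and the part of cell composition in the group differences was not tested.

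**Figure D4:**
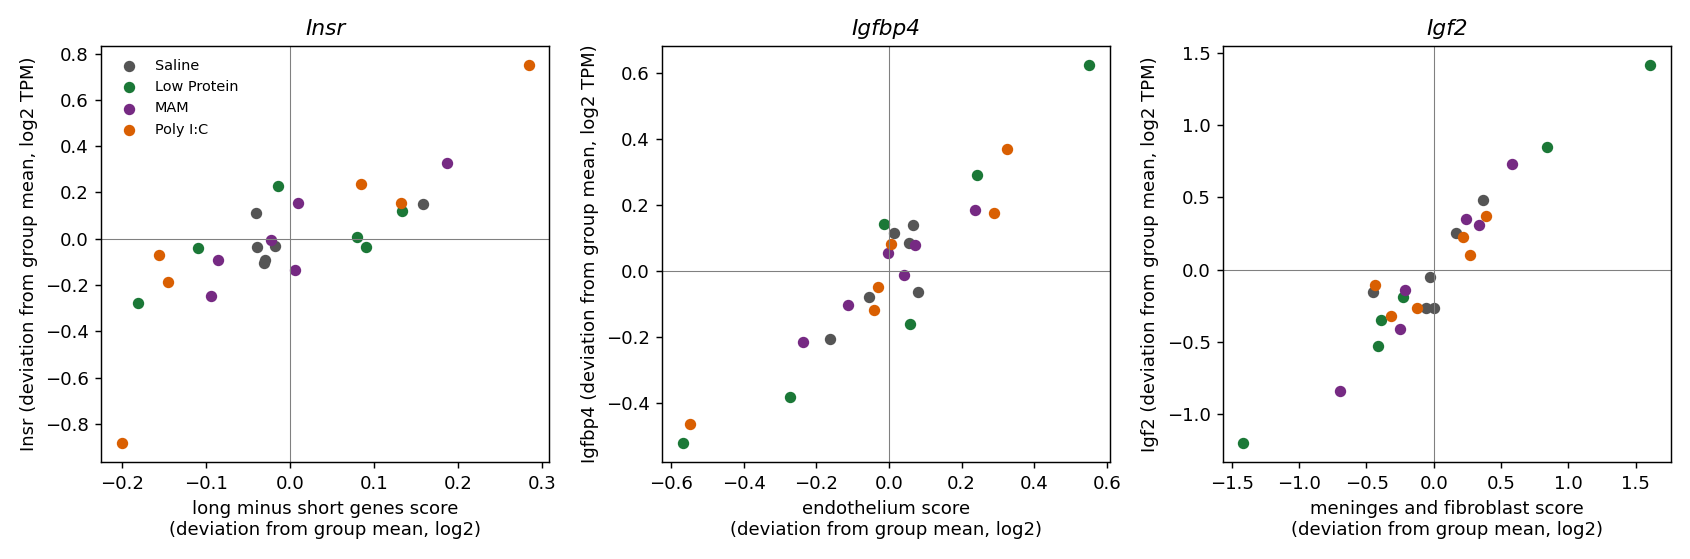
Deviation of log2 TPM from the group mean in each of 24 pups for Insr, Igfbp4 and Igf2 (vertical axes), against the deviation of the long-gene, endothelial or meningeal and fibroblast score (horizontal axes, log2). Points rise along each score (r = 0.81, 0.94 and 0.96), with Poly I:C pups at both ends for Insr and Low Protein pups at both ends for Igf2.

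The wider pathway was followed through 80 further genes of IGF and insulin signalling, of which 70 were tested. In Low Protein pups 2 of 70 were called at an unadjusted p under 0.05 (2.86%, beside 7.24% of all tested genes), in MAM pups 5 (7.14%, beside 9.83%) and in Poly I:C pups 4 (5.71%, beside 9.36%). None passed after adjustment over all tested genes. The median log2 difference of the 70 was -0.03 in Low Protein pups, -0.08 in MAM pups and 0.0041 after Poly I:C.

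In Low Protein pups Eif4ebp1, which encodes a translation repressor inhibited by TOR, was higher by a log2 fold change of 0.47 ± 0.17 (SE, limma adjusted p = 0.628), and Mapk3, which encodes the kinase ERK1, was lower (-0.12 ± 0.04, limma adjusted p = 0.598). Eif4ebp1 was also higher in Low Protein than in MAM pups (0.36, limma adjusted p = 0.566) and Poly I:C pups (0.39, limma adjusted p = 0.982). Its value rested on 1 litter, at 0.11 and not called without Low Protein litter 2 and 0.83 without Low Protein litter 1. The call was lost without Saline litter 1 and on litter means as well. In MAM pups Ddit4, a stress-induced TOR inhibitor, was higher by 0.22 ± 0.06 (SE, limma adjusted p = 0.444), and Akt1s1, an AKT substrate in the TOR complex, by 0.13 (limma adjusted p = 0.506). The PI3K regulatory subunits Pik3r1 and Pik3r3 and the RAS activator Sos1 were lower in MAM pups by log2 differences of -0.23, -0.22 and -0.24 (limma adjusted p = 0.502 for each). With the trend in genomic span removed, these 3 and Akt1s1 were no longer called, and neither was Mapk3 in Low Protein or Poly I:C pups. Of the 32 fits that left out a pup or litter, Akt1s1 lost its call in 19, Pik3r1 in 10, Sos1 in 9 and Pik3r3 in 8, and Ddit4 in none. Leaving out Saline litter 1 took Sos1 to -0.13.

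In Poly I:C pups Txnip, a glucose-responsive gene that FoxO factors are known to control, was higher by 0.44 ± 0.14 (SE, limma adjusted p = 0.332). Socs2, a brake on growth hormone and IGF signalling, was lower by a log2 difference of -0.28 (limma adjusted p = 0.447), the S6 kinase gene Rps6kb2 by -0.15 (limma adjusted p = 0.367) and Mapk3 by -0.13 (limma adjusted p = 0.352). Without Poly I:C litter 2, Txnip was at 0.28, Rps6kb2 at -0.056 and Mapk3 at -0.086, and none of these 3 was called. Socs2 was at -0.18 without Saline litter 2 and lost its call in 7 of the 32 fits, and Rps6kb2 also lost its call without Saline litter 2 and on litter means. The ligand and carrier list and the list of binding protein proteases had no called gene in any comparison with Saline. The 3 comparisons share their Saline pups.

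Markers of other cell classes were counted at an unadjusted p under 0.05, which 7.24%, 9.83% and 9.36% of all tested genes passed in the comparisons of Low Protein pups, MAM pups and Poly I:C pups with Saline. Of 8 markers of the ganglionic eminence and interneurons, 5 were called lower in Low Protein pups, 3 in MAM pups and 1 in Poly I:C pups, and none was called higher. Of 8 radial glial markers, 1, 2 and 3 were called higher in the same order. Of 8 microglial markers, 2 were called higher in MAM pups and none in Low Protein or Poly I:C pups. No endothelial, meningeal, choroid plexus or blood marker was called in a comparison with Saline, and 1 of 6 mural markers, Rgs5, was lower in MAM pups (log2 fold change -0.28, limma adjusted p = 0.506).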

How the data were processed

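Hippocampal and neocortical RNA of 24 pups was sequenced as paired reads from stranded mRNA libraries. Per the labels and the paper's methods, the authors aligned reads to rn6 with STAR (version 2.4.1d), quantified them with Partek software and deposited TPM values with an offset of 0.0001. Each pup's TPM sums to 70350.1, and multiplying a low value by the GRCr8 genomic span gives near-whole steps (46.4% to 53.9% of low values within 0.05 of a whole read, where 10% would by chance), so values are per genomic span. Depth was estimated from the step. Spans were found for 97.6% of genes, and GRCr8 is not the authors' build. Of the values, 20.9% equal the offset.

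No pseudocount was added. Log2 TPM of the 12516 genes with a mean above 0.01 was fitted in limma (version 3.58.1, R version 4.3.3, lmFit and eBayes with a trend) with the group as the factor, with Benjamini-Hochberg adjustment over those genes. The study's filter, a mean above 1 in every group, keeps 5 members and is an alternative, as are other pseudocounts, scalings, fits by litter, left-out pups or litters and a correction for genomic span added after the values were seen. Litters were read from the leading digit of each sample number. Exact two-sided permutation tests compared mean log2 values, and correlations were permuted within groups. Fold changes are on the log2 scale with the offset. The fit was tested on simulated data with known changes.

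The members and gene lists were chosen with earlier results of these data known. Genes named are the 10 members, other pathway genes with an unadjusted p under 0.05 against Saline, Igf2, marker genes, and the 3 genes most correlated with each member.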

Additional observations from a re-analysis of the deposited data

Results flagged for a closer look

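Within each group of 6 pups, single pups far from the others were searched for in 44 sets of values (10 members and Igf2 in 4 groups) by Dixon's ratio of the gap to the whole range on the log2 scale. Chance gives about 1 such pup in 20 sets. The search marked 3. Irs1 in Low Protein pup 2-3 was 0.197 TPM, where the other 5 lay between 0.219 and 0.231 TPM. Igfbp2 in Poly I:C pup 1-3 was 4.10 TPM, where the other 5 lay between 7.02 and 9.63 TPM. Igfbp5 in Saline pup 2-3 was 1.16 TPM, where the other 5 lay between 1.49 and 1.58 TPM.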

How the results depend on the processing

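Each result was recomputed under 46 settings, 32 of which left out a pup or a litter and 1 of which, the correction for genomic span, was chosen after seeing the data. With the filter at a mean of 1 in every group, which keeps 5 members, 420 genes were called in Low Protein pups, 576 in MAM pups and 507 in Poly I:C pups, from a smaller set of genes. Fits on litter means called 641 genes in MAM pups, and the correction for genomic span 680. Fits of only the 12 pups compared called 1 member in Low Protein pups (Insr, beside 9.18% of tested genes) and 1 in MAM pups (Irs1, beside 13.6%), and the exact permutation test called 2 in Low Protein pups. Between Low Protein and MAM pups the count of members was 0 on litter means. It was 0 with the filters at 0.1 and 1 because both remove Igf1, the 1 member called, before testing. The sample numbers did not pair the pups, with mean correlations of same-numbered pups between -0.0154 and 0.0646. A replicate block called 0 members in each comparison with Saline and 1 between Low Protein and MAM pups, and 1157, 1557 and 1391 genes in all.

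Values near 0 changed sign, and none of them was called. Igf1 in Poly I:C pups was -0.00038 with a pseudocount of 0.01, -0.0032 with 0.1 and -0.0093 with upper quartile scaling, and Irs1 was 0.0084 with a pseudocount of 0.1. Igfbp5 was 0.0047 in Low Protein and 0.026 in MAM pups with median of ratios scaling, 0.0012 and 0.031 with upper quartile scaling, and 0.013 and 0.034 with the correction for genomic span. That correction also gave 0.059 for Igf1r, 0.020 for Insr and 0.027 for Irs2 in MAM pups and 0.010 for Igfbp3 in Poly I:C pups. The cause was not tested.

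Leaving out single pups or litters, genes called ranged from 552 (without Saline litter 2) to 1159 in Low Protein pups, from 439 (without Saline litter 1) to 1773 in MAM pups, and in Poly I:C pups from 591 when their litter 2 was left out to 2333 when their litter 1 was. Members called ranged from 0 to 1 in MAM pups, from 0 to 1 between Low Protein and MAM pups and from 0 to 2 between Low Protein and Poly I:C pups. The 2 were called without Poly I:C pup 1-3, the lowest pup of its group for both, beside 6.73% of tested genes in that fit. For the other such fits between models the share of all tested genes was not taken, so those member counts have no background. In Low Protein pups the log2 fold change stayed negative but moved widely for 4 members, from -0.43 to -0.18 for Igf1 (without Saline pups 1-1 and 1-3), -0.21 to -0.090 for Igf1r (without Saline litter 2 and Low Protein pup 2-3), -0.16 to -0.015 for Igf2r (without Low Protein litter 1 and pup 2-3) and -0.26 to -0.00076 for Igfbp4 (without Low Protein litters 2 and 1). It ranged across 0 from -0.018 to 0.12 for Igfbp2, -0.094 to 0.11 for Igfbp3, -0.15 to 0.15 for Igfbp5 and -0.086 to 0.44 for Igf2. In MAM pups it ranged from -0.0072 to 0.55 for Igf1, -0.087 to 0.11 for Igfbp2, -0.081 to 0.12 for Igfbp3, -0.090 to 0.074 for Igfbp5 and -0.21 to 0.10 for Igf2. In Poly I:C pups it ranged from -0.11 to 0.14 for Igf1, -0.079 to 0.19 for Igf1r, -0.022 to 0.14 for Igf2r, -0.28 to 0.049 for Insr, -0.13 to 0.16 for Irs1 and -0.16 to 0.021 for Irs2. The same range was -0.25 to 0.23 for Igfbp2, -0.12 to 0.081 for Igfbp3, -0.26 to 0.070 for Igfbp4 and -0.11 to 0.063 for Igf2. The few reads behind Igf1, the spread between pups and the 2 litters per group limit the precision.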
